A study of Homo sapiens with 2 samples.

Results

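The 38 genes described here encode the machinery that moves proteins along and out of cilia: the intraflagellar transport (IFT) particles, the BBSome and its assembly factors, and the kinesin-2 and dynein-2 motors. They were chosen by gene symbol, from a list proposed with the log2 ratios of these arrays already known. Their ratios are therefore a description, and no test is made on them. Of the 38, 37 are among the 19775 genes for which the platform's annotation names a probe set of their own. The study compared messenger RNA in K562, a cell line from a human erythroleukemia, after nucleofection (electrical transfer of nucleic acid into cells) of 3 µg of a synthetic mimic. One culture received a miR-34a mimic and the other a control mimic without homology to human genes. Total RNA was taken 24 hours later and hybridized to Affymetrix arrays. Both cultures therefore share the nucleofection, and each group is 1 array of 1 culture, so no difference has a replicate check and no p-value is given. The amount of mature miR-34a reached in the cells was not measured by these arrays.

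IFT carries tubulin and membrane proteins between the base and the tip of the cilium. IFT-B particles, pulled by kinesin-2, travel towards the tip, and IFT-A particles, with the motor dynein-2, bring cargo back to the base. The BBSome is a coat-like complex that links membrane receptors to this traffic, and mutations in its subunits cause Bardet-Biedl syndrome. Some of these proteins also work without a cilium, as in the immune synapse of T cells. The miR-34 and miR-449 microRNAs are known for their part in the formation of multiciliated cells, where the centriole cap gene CCP110 is a described target.

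The mature microRNA that was transfected as a mimic is shown with 2 others of the same seed from the RefSeq microRNA table used here (GRCh38.p14), since this family is the one described in multiciliated cells. These are examples, and the family is not shown in full. The capitals mark the seed, bases 2 to 8, which pairs with target messages.
hsa-miR-34a-5p: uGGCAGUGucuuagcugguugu
hsa-miR-449a: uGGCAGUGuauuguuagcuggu
hsa-miR-449b-5p: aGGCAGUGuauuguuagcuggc
The mature sequence of the first lies at chr1:9151735-9151756 on the minus strand. The 3 shown share the seed GGCAGUG and differ in the bases after it.

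RFX transcription factors control many cilium genes through the X-box, a motif with 2 arms. One arm of it, GTTGCC, was searched on both strands in RefSeq promoter windows of GRCh38.p14. A window ran from 250 bases before to 50 bases after an annotated start. Some genes, such as IFT74 and ARL6, have several starts and had more sequence searched. The shares of genes with a match are therefore not over equal lengths of sequence. A window was found for 35 of the 38 genes, and 16 of these, 45.7%, held it. It was present for 14.6% of the 27305 genes with a window and for 17.0% of the 10273 of these that were expressed here. Stretches of 30 bases from before an annotated start of 6 genes are shown because these genes span the range of the ratios given further on. The capitals mark GTTGCC or its reverse complement, GGCAAC, and all are written on the strand of the gene.
DYNC2LI1, chr2:43774009-43774038, plus strand: gcggccgcgacgtcgctcccatGGCAACcc
IFT74, chr9:26956372-26956401, plus strand: tatcccgcccccGTTGCCgggatacgccgc
TTC8, chr14:88824605-88824634, plus strand: cagccgtcgcggGTTGCCgggcagagtcgg
CLUAP1, chr16:3500970-3500999, plus strand: aagggtccattgGTTGCCatagagatcgtc
IFT122, chr3:129440194-129440223, plus strand: agcttaccgcgcatgtacGTTGCCaggggt
IFT27, chr22:36776143-36776172, minus strand: ggagcttttggcGGCAACcaatcgagggtc
A match of 6 letters is a description of these windows and not a bound site. The 13 expressed genes with a match had a median log2 ratio of 0.22, and 9 of them were higher with miR-34a. The 18 expressed genes whose window lacked one had a median of 0.34, and 17 were higher. These medians are a description, and a part of RFX factors in the ratios was not tested.

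Most of these messages were dim. Signals are the deposited intensities in arbitrary units, and 75.4 was taken as background, the highest value among 27 probe sets for bacterial RNA that read low on both arrays; signals up to it are called within background. The log2 ratio is log2(signal + 14.9) with miR-34a less that with the control, centred on the median of expressed genes. A probe set counts as expressed where its mean level over both arrays reached the median of all probe sets, a signal of about 39.0. Of the 81 probe sets that belong to 1 of these genes alone, 55 passed this filter, and 28 lay above background on both arrays. A further 10 lay above background with miR-34a only, 0 with the control only, and 43 were within background on both. The 10 are 12.3% of the 81; of all 41091 probe sets with 1 gene symbol, 2.18% were above background with miR-34a only and 1.76% with the control only. The filter left 33 of the 38 genes with a value. BBS5, BBS9, ARL6 and DYNC2H1 were under it, and TTC21B had only a probe set shared with another gene, which read 12.1 and 18.0. The value of a gene is that of its brightest expressed probe set. By that probe set, 22 of the 33 were above background on both arrays, 4 on the miR-34a array only, 0 on the control array only and 7 on neither. Over all expressed genes 3.51% were above it on the miR-34a array only and 2.62% on the control array only. The 22 are 66.7% of the 33, against 75.5% of all expressed genes. These counts depend on the cut: with the median of the bacterial probe sets, 11.2, as background, all 33 were above it on both arrays.

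**Figure D1:**
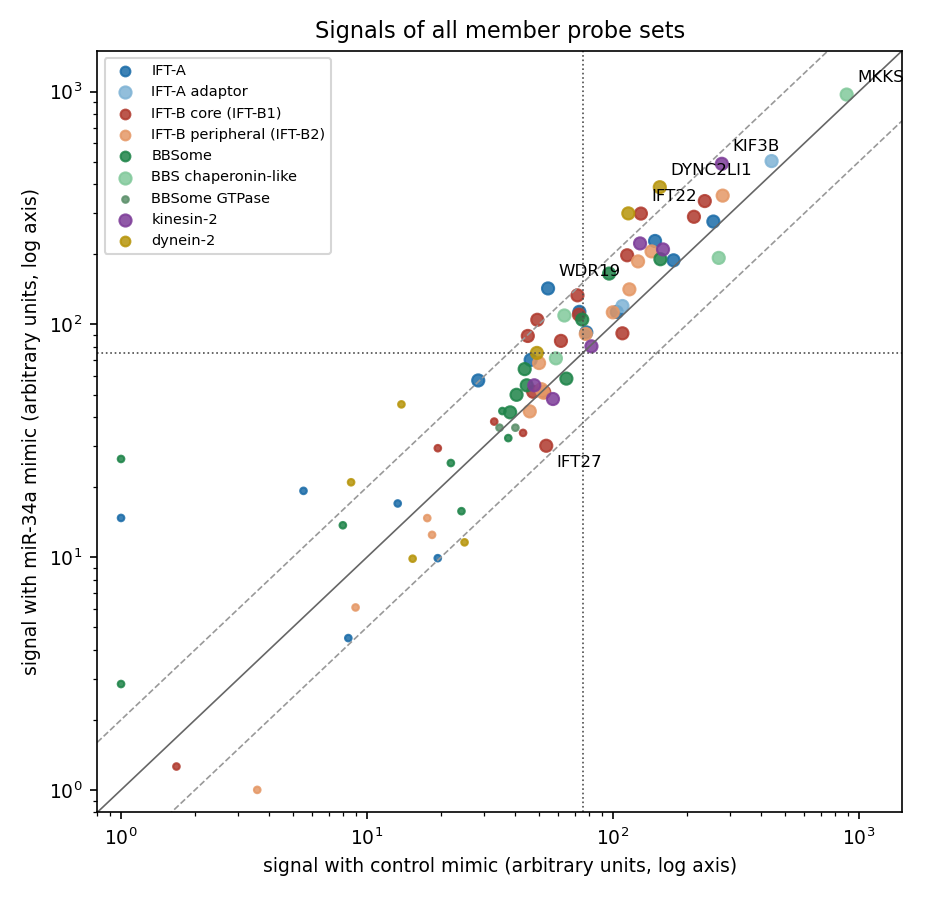
Signal of each of the 81 probe sets with the control mimic (x axis) and with the miR-34a mimic (y axis), in arbitrary units on log axes, coloured by complex; large points are expressed probe sets. The solid line marks equal signals, the dashed lines 2-fold, and the dotted lines the background of 75.4. The brightest probe sets of DYNC2LI1, IFT22 and WDR19 lie above the upper 2-fold line, and 10 points lie above background with miR-34a only. Dimmer probe sets also lie past these lines, such as those of IFT56 and WDR35 above the upper and those of IFT80 and DYNC2H1 below the lower.

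On the arrays themselves, K562 identity and RNA quality were read from single values. The erythroid factor genes GATA1 and KLF1 read 1187 and 1467 on the control array. Among markers of other blood cells, CD3E, MS4A1, MPO and CD14 were within background on both arrays. Other lymphoid genes were not dim. CD3D, CD22 and CD79A had mean log2 levels of 9.22, 8.85 and 8.45 over both arrays. The upper quartile of mean level of the transport genes was 7.74. The log2 ratio was -1.41 for CD3D, 0.007 for CD22 and 0.04 for CD79A. These lymphoid genes were singled out after their values were seen. Of 6 markers of ciliated epithelium, FOXJ1, DNAH5, TEKT1 and TPPP3 were within background on both arrays, and DNAI1 and CAPS read 78.0 and 85.6 with the control and 81.8 and 83.8 with miR-34a. The summed signal of the 6 was 235.6 and 250.6. The 3′ to 5′ signal ratio of GAPDH, which grows as RNA degrades, was 3.07 with the control and 3.53 with miR-34a, and that of ACTB 4.30 and 4.54. Its part in the ratios was not tested.

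The question was how these transport genes stood in cells with the miR-34a mimic against cells with the control mimic. They were mostly higher. Of the 33 genes with a value, 28 were higher and 5 lower, and the median log2 ratio was 0.33, with an SD of 0.40 over genes. The median of all 12774 expressed genes is 0 by construction, and their quartiles were -0.17 and 0.17. Of the 33, 22 were above that range and 3 below it. At least 2-fold higher were 3 genes, DYNC2LI1, WDR19 and IFT22, and 0 were 2-fold lower. The values of WDR19 and IFT22 come from probe sets of the less specific _s_at class. Without such classes 25 genes kept a value, WDR19 and IFT22 not among them, and 1 gene, DYNC2LI1, was past 2-fold. Over all expressed genes 0.595% were 2-fold higher and 0.548% 2-fold lower. At least 1.5-fold higher were 8 genes, or 24.2% of the 33, against 3.28% of all expressed genes. At least 1.5-fold lower was 1 gene, IFT27, against 3.01% of all. With a pseudocount 4 times as large, which shrinks the ratios of dim genes, 4 genes were past 1.5-fold higher and 0 lower, and only DYNC2LI1 was past 2-fold. Since the list was drawn up with these ratios known, the shares are set side by side and nothing more is read from them.

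**Figure D2:**
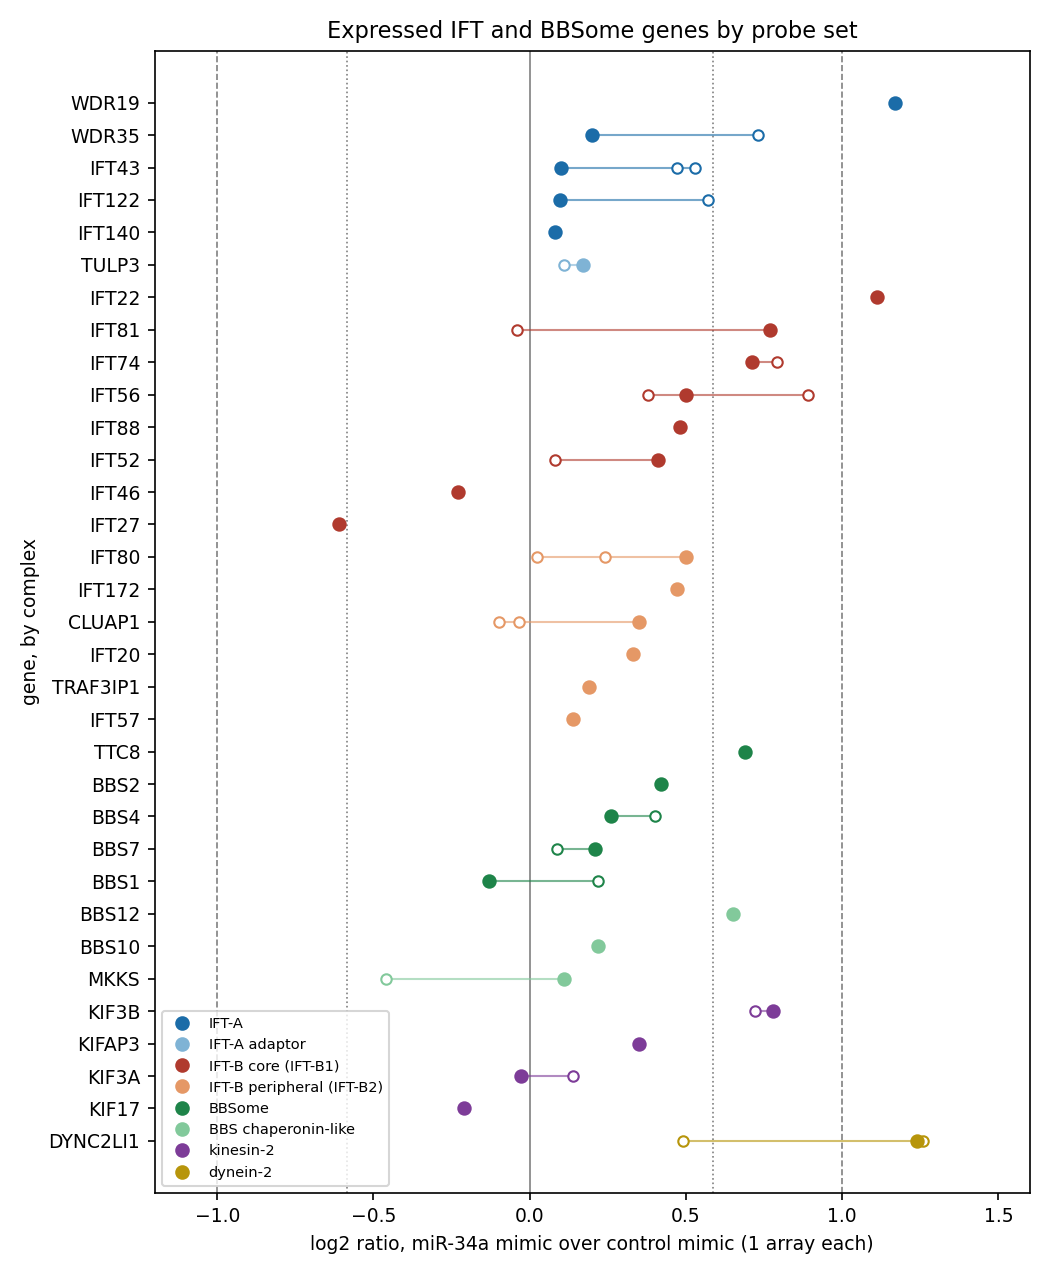
Log2 ratio of miR-34a over control mimic for the 33 genes with an expressed probe set, grouped by complex (colours). Filled points are the brightest expressed probe set, open points the others, and the lines join probe sets of a gene; dotted and dashed vertical lines mark 1.5-fold and 2-fold. DYNC2LI1, WDR19 and IFT22 lie past 2-fold, and the probe sets of IFT81, DYNC2LI1 and MKKS are spread most widely.

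The same held among the brighter genes. The 22 genes above background on both arrays had a median log2 ratio of 0.29, with 20 higher and 2 lower, while the 9639 such genes of the whole array had a median of -0.0068. Of the 22, 5 were at least 1.5-fold higher, against 2.66% of the 9639. The level of the messages was also set beside that of other genes. Between the quartiles of mean level of the 33 lay 17 of them, of which 16 were higher and 6 at least 1.5-fold higher. Of 3124 expressed genes in that range of level, 53.4% were higher and 4.13% at least 1.5-fold higher. Without DYNC2LI1 the median over the remaining 32 was 0.29.

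**Figure D3:**
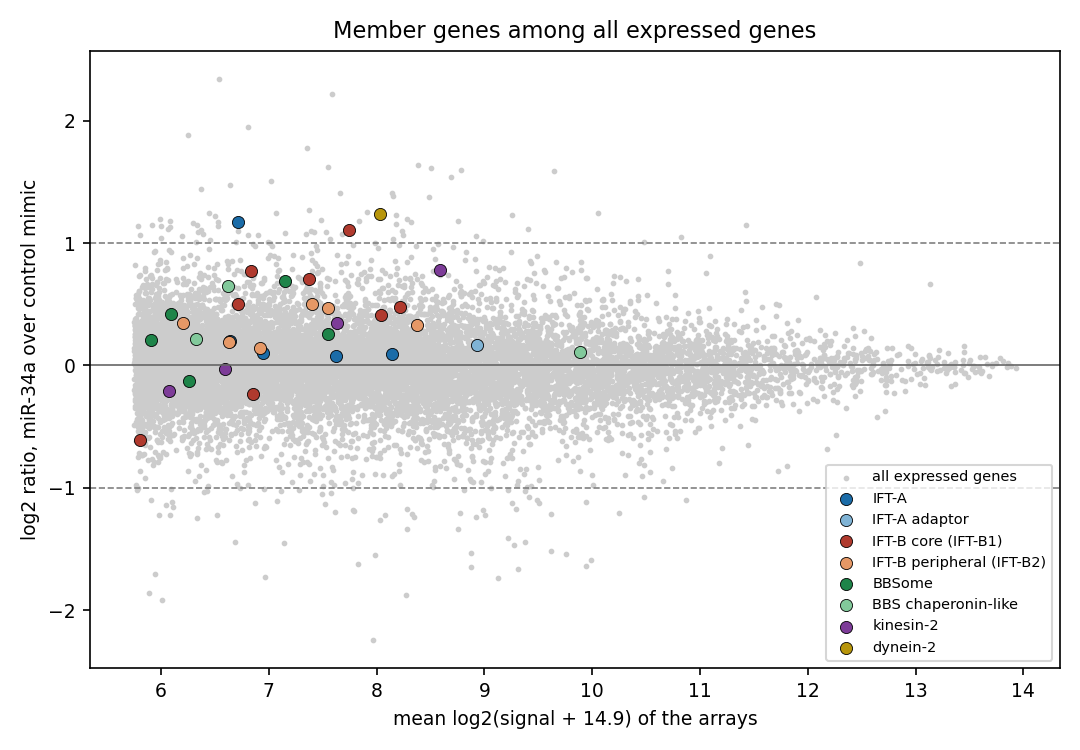
Log2 ratio of miR-34a over control mimic (y axis) against mean log2(signal + 14.9) over both arrays (x axis); grey points are all 12774 expressed genes and coloured points the 33 transport genes. Dashed lines mark 2-fold. The coloured points lie mostly above 0, with 3 past the upper line and IFT27 lowest at the dim end.

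The retrograde motor held the largest ratio. DYNC2LI1, the light intermediate chain of dynein-2, read 155 with the control and 389 with miR-34a, a log2 ratio of 1.24. This was the 24th highest ratio of the 12774 expressed genes. Its second probe set, of the _s_at class, went from 116 to 300.1, at 1.26, so the 2 brightest probe sets gave nearly the same ratio. Another read 49.1 and 75.4, at 0.49, and the fourth, under the filter, 8.62 and 21.0. All 4 probe sets were higher with miR-34a. DYNC2H1, the heavy chain that carries the motor domain, could not be read in the same way. Its 3 probe sets were all under the filter. One went from 13.8 to 45.4, and the others from 24.9 to 11.6 and from 15.3 to 9.85, all within background.

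Kinesin-2, the motor towards the tip, was uneven between its subunits. KIF3B, one of the motor subunits, read 277 and 490.1, a log2 ratio of 0.78, and its other probe set 129 and 223, at 0.72. These probe sets were both above background on both arrays and agreed closely. KIF3A, the partner motor subunit of KIF3B, read 81.8 and 80.5, a ratio of -0.029, with a second probe set within background at 0.14. KIFAP3, the non-motor subunit that joins the pair to cargo, read 160 and 210.1, at 0.35 on its single probe set. KIF17, the kinesin-2 that works as a homodimer, read 57.1 and 47.8, both within background, at -0.21. Over these 4 genes the median was 0.16.

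Of the 6 IFT-A genes, 5 had a value and all 5 were higher, although only WDR19 by a large amount. WDR19 (IFT144), a subunit of the IFT-A core, read 54.5 with the control, within background, and 143 with miR-34a, at a log2 ratio of 1.17. Its other 2 probe sets read at most 19.4 on either array, so the change rests on 1 probe set. The other core subunits showed less: IFT122 read 256 and 277, at 0.096, and IFT140 176.5 and 189, at 0.080. WDR35 (IFT121) had 0.20 and IFT43 0.10 on their brightest probe sets. The second probe set of IFT122, with 148 and 228, gave 0.57. That of WDR35 read 28.4 and 57.5, within background, at 0.73, and passed the filter only through the miR-34a array. The other 2 of IFT43 gave 0.53 and 0.47. For these 3 genes the brightest probe set had the smallest ratio, and the median of the 5 genes, 0.10, was 0.37 when the expressed probe sets of each gene were averaged. In that setting the medians of IFT-B and the BBSome, 0.44 and 0.26 on the brightest probe sets, were 0.30 and 0.34, so the order of the complexes depends on this choice. TULP3, the adaptor that brings receptors to IFT-A, read 442 and 504, at 0.17, with its second probe set at 0.11.

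IFT-B was measured for all 14 listed genes, with 12 higher, 2 lower and a median of 0.44. Its core held both the highest and the lowest values. IFT22, a small GTPase of the RAB-like family, read 130.1 and 299.5, a log2 ratio of 1.11, on an expressed probe set above background on both arrays. Its other probe set was under the filter and read 32.9 and 38.3. IFT74 and IFT81, which together form a module that binds tubulin, were both past 1.5-fold on their brightest probe sets. IFT74 read 114 and 198, at 0.71, and its second probe set gave 0.79. IFT81 read 71.8 and 133, at 0.77, from a control signal within background, but its second probe set read 52.6 and 51.2, at -0.040.

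The other core subunits were closer to the median of the group. IFT88, the subunit whose loss in mice gives polycystic kidneys and absent cilia, read 237 and 339, at 0.48 on its only probe set. IFT52, a core subunit, read 214 and 290.2, at 0.41, and 0.080 on a dimmer probe set. IFT56 read 72.8 and 110.2, at 0.50, and its other expressed probe sets gave 0.89 and 0.38; in all 3 the control signal lay within background and the miR-34a signal above it. The exceptions were IFT46 and IFT27. IFT46, known for the import of outer dynein arms into motile cilia, read 109 and 91.6, at -0.23 on its single probe set. IFT27, a RAB-like GTPase that links IFT-B to the exit of the BBSome from cilia, read 53.6 and 30.1, at -0.61, and a dimmer probe set gave -0.25. All 3 probe sets of IFT27 were within background on both arrays, so its level is poorly measured here. The brightest passed the filter only through the control array.

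The 6 peripheral IFT-B subunits were all higher and lay close together, between 0.14 and 0.50. The values were 0.50 for IFT80 and 0.47 for IFT172, the largest subunit, which takes part in the turnaround of particles at the tip. IFT80 read 127 and 187, and IFT172 144 and 206. The other expressed probe sets of IFT80 gave 0.24 and 0.023, and a probe set that it shares with TRIM59 gave -0.23. IFT20, which also has a pool at the Golgi, read 280 and 358, at 0.33. CLUAP1 (IFT38) had 0.35 on a probe set within background, and its other 2 gave -0.035 and -0.098. TRAF3IP1 (IFT54), which binds microtubules, read 77.6 and 91.0, at 0.19, and IFT57 99.95 and 113, at 0.14. The SD over these 6 genes was 0.14, against 0.56 over the 8 core genes.

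BBSome subunits were dim, and 5 of 7 had a value, with 4 higher and a median of 0.26. TTC8 (BBS8) was the highest, with 96.6 and 165, a log2 ratio of 0.69 on its only probe set and above background on both arrays. BBS4, a subunit with the same kind of repeats, read 156 and 191, at 0.26, and its second probe set gave 0.40. BBS2, BBS7 and BBS1 were within background on both arrays. BBS2 had 0.42 and BBS7 0.21. BBS1 gave -0.13 on one probe set and 0.22 on the other. BBS5 and the 5 probe sets of BBS9 read at most 42.5 on either array, all under the filter. So did ARL6 (BBS3), the GTPase that recruits the BBSome to membranes, with 40.2 and 36.0 on its brighter probe set. Only TTC8 and BBS4 of the complex were thus above the chosen background on both arrays.

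The chaperonin-like proteins that fold and assemble the BBSome were all 3 higher on their brightest probe sets. MKKS (BBS6) was the brightest of the 38 genes, with 893 and 972, at 0.11. Its second probe set, also well above background, went the other way, from 269.5 to 193, at -0.46. The mean of the pair was -0.17, so MKKS had no settled direction. BBS12 read 63.5, within background, and 109, at 0.65, and BBS10 read 58.7 and 71.5, both within background, at 0.22. Each of these rests on 1 probe set.

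Probe sets of the same gene are the only check within the arrays. Of the 17 genes with 2 or more expressed probe sets, 12 had all of them on the same side of 0, and in all 12 that side was higher with miR-34a. These 12 are 70.6% of the 17. Of all 5494 such genes of the array, 54.0% had every expressed probe set on the same side and 26.0% had every one higher. On the 2 brightest probe sets alone the shares on the same side were closer, at 70.6% of the 17 and 66.0% of all. Among the 55 expressed probe sets, 46, or 83.6%, were higher, against 49.0% of the 21932 expressed probe sets with 1 gene symbol. The 26 probe sets under the filter were split evenly, with 13 higher. The list was drawn up with these ratios known, so the shares are a description and no support for the rise. The spread between probe sets of a gene, pooled over the array, was 0.24 on the log2 scale. Of the 33 genes, 18 were higher by more than this spread and 1, IFT27, lower by more. The other 14, or 42.4%, had ratios smaller than it, 10 of them higher and 4 lower, so their direction lies within the spread. They are IFT122, IFT140, WDR35, IFT43, TULP3, IFT46, IFT57, TRAF3IP1, BBS1, BBS7, MKKS, BBS10, KIF3A and KIF17. Of all expressed genes 64.1% had ratios smaller than the spread. Among the 18, IFT81 and CLUAP1 also had expressed probe sets on the other side of 0, as low as -0.040 and -0.098. Their direction is therefore not settled either. For others among the 18, such as WDR19, IFT22 and BBS12, the direction rests on 1 expressed probe set, and that of BBS2 was within background on both arrays. This spread covers differences between probe sets and none between cultures. Since the measurements are of bulk RNA, fewer cells that hold a message and less of it per cell cannot be told apart.

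The other genes of the pathway were taken from lists drawn up for this purpose. The remaining dynein-2 subunits and the light chains that it shares with cytoplasmic dynein-1 were higher in all 8 expressed genes, with a median of 0.38, and 0 were past 1.5-fold. DYNC2I1 (WDR60), an intermediate chain of dynein-2, read 159 and 246, at 0.58, just short of 1.5-fold on this scale, but its second expressed probe set gave -0.14. The dynein-2 light chain DYNLT2B read 213 and 319, at 0.54. The light chain DYNLL2 was the lowest, at 0.034, with its 3 expressed probe sets between -0.18 and 0.034, so its direction is not settled. Among 5 subunits of cytoplasmic dynein-1, which moves cargo outside cilia, the median was 0.028, with DYNC1LI2 highest at 0.54, between 0.41 and 0.56 on 3 probe sets, and DYNC1I2 lowest at -0.095. The other light intermediate chain of dynein-1, DYNC1LI1, read 1200 and 1232, at 0.028. The kinesin-1 genes and KIF3C had a median of 0.0049 over 6 expressed genes, from -0.18 for KLC2 to 0.23 for KIF5B.

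Of the further IFT-B genes listed, 2 were expressed, both with small ratios. IFT25, the partner of IFT27 and also a small heat shock protein, read 2643 and 2856, at 0.10, and IFT70B 57.3 and 67.7, within background, at 0.18. Of 4 BBSome-related genes 3 were higher, with a median of 0.24, close to the 0.26 of the BBSome itself. CCDC28B, a modifier of Bardet-Biedl syndrome, had 0.48 and LZTFL1, a regulator of BBSome traffic, 0.40, with its 3 probe sets between -0.094 and 0.66, while TRIM32, a ubiquitin ligase, had -0.33. BBIP1, the smallest BBSome subunit, had 0.083 on its brightest probe set and between -0.15 and 0.34 over 4.

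Genes that act around the cilium rather than in the transport particles were mixed. Of 10 expressed genes for ciliary cargo and membrane GTPases 6 were higher, with a median of 0.17. RAB23, a GTPase of Hedgehog signalling, was highest at 0.31 and PDE6D, a carrier of lipid-anchored cargo, lowest at -0.50 within background. Of the 10 Hedgehog genes listed, whose signalling in vertebrates passes through the cilium, 5 were expressed, with 2 higher and a median of -0.073. GLI1, a transcription factor and target of the pathway, read 30.4, within background, and 84.0, at 1.12 on its single probe set. This probe set passed the filter only through the miR-34a array. GLI2 was lowest at -0.31, and the receptor gene SMO was under the filter with at most 36.8. Of 6 expressed cilium transcription factors and multicilia regulators 5 were higher, with a median of 0.18. CCNO, a cyclin of multiciliated cells, had 0.45 and RFX5 -0.14. RFX1 and RFX2 had 0.20 and 0.15, and RFX3 and FOXJ1 read at most 30.9 on either array. CCP110 read 170 and 216, at 0.31, and was not lower with miR-34a. None of these lists had more than 1 gene past 1.5-fold.

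**Figure D4:**
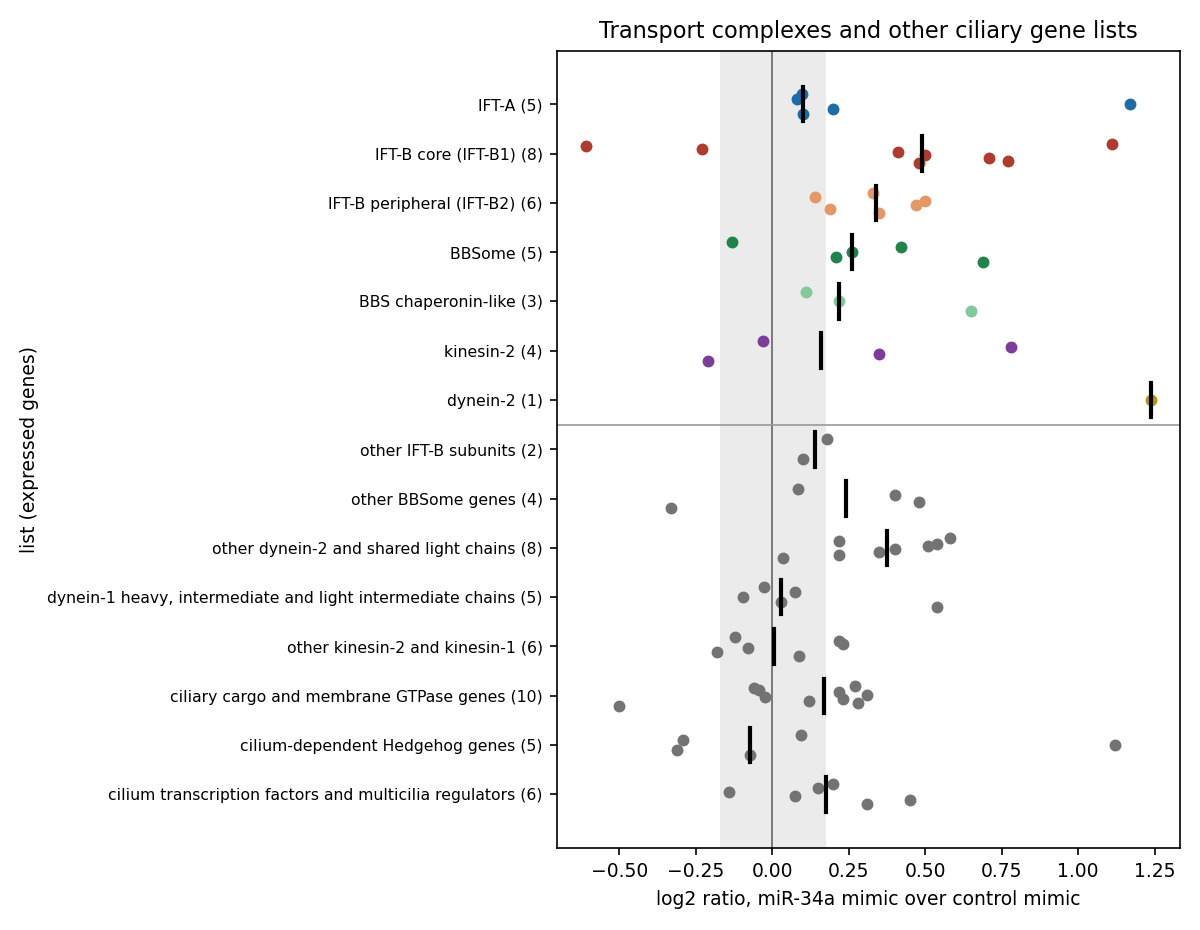
Log2 ratio of miR-34a over control mimic for the expressed genes of each transport complex (colours, above the line) and each further ciliary list (grey, below it), with the number of genes in brackets; black bars are medians. The shaded band runs between the quartiles of all expressed genes, -0.17 and 0.17. Among the transport complexes with more than 1 expressed gene the medians run from 0.10 for IFT-A to 0.49 for the IFT-B core, and among the further lists from -0.073 for the Hedgehog genes to 0.38 for the other dynein-2 subunits and shared light chains.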

How the data were processed

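Messenger RNA was measured in 2 K562 cultures, 1 array per group. Per the labels' protocols, biotinylated cRNA was made from 15 µg of Trizol-extracted total RNA. The authors deposited probe set intensity values on a linear scale with a floor of 1; which software, background correction and scaling made them is not given in the sources used here. This affects dim probe sets most. The columns held 0 other samples. Of 54613 probe sets other than controls, the platform annotation gave 1 symbol for 41091, several for 1801 and none for 11721; only the first kind gave gene values. From the deposited intensity values, log2(signal + 14.9) was computed. The 25th percentile of all values served as pseudocount, which understates changes of dim genes, and the median ratio of expressed genes, 0.0090, was subtracted. Alternatives changed the pseudocount, filter, centring, normalization (quantile or loess, span 0.3) and probe sets per gene. The calculation was tested on simulated data, with changes planted only in genes above the median level of expressed genes. Many of the genes described here are dimmer, and the calculation was not tested at their level. The genes and lists were chosen with earlier results of these data known. All 38 genes are accounted for, and of each further list the highest, the lowest and any gene past 1.5-fold are named; others named there, such as CCP110, RFX1 and DYNLT2B, were chosen after their values were seen. Array positions were not used, and microRNA target sites were not searched here. Python 3.11.15, NumPy 2.4.6, pandas 2.3.3, statsmodels 0.14.6 and matplotlib 3.10.9 were used.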

Additional observations from a re-analysis of the deposited data

How the results depend on the processing

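The median log2 ratio of the transport genes stayed between 0.21 and 0.42 over the 11 alternatives, and the share of them that was higher between 80.0% and 100%. With a pseudocount 4 times as large and all 33 genes kept, 4 were at least 1.5-fold higher, 0 at least 1.5-fold lower (IFT27 at -0.34) and 1 at least 2-fold higher, with WDR19 at 0.82 and IFT22 at 0.91. The highest share came with a filter at the 75th percentile of level, which kept 15 genes; there 4 were at least 1.5-fold higher, 0 at least 1.5-fold lower, and the kinesin-2 median was 0.58. With only probe sets above background on 1 array or both, 26 genes were kept and 0 were 1.5-fold lower, since IFT27 was left out. The medians of the BBSome, chaperonin-like and kinesin-2 genes were then 0.47, 0.39 and 0.36, against 0.26, 0.22 and 0.16. Of the 26, WDR19, IFT56, IFT81 and BBS12 passed on the miR-34a array only and 0 on the control array only. This filter thus itself favours higher ratios, and nothing is read from the values it gives. Averaging the expressed probe sets of each gene gave medians of 0.37 for IFT-A, 0.30 for IFT-B and 0.34 for the BBSome, another order than the 0.10, 0.44 and 0.26 of the brightest probe sets. The _s_at, _x_at and _a_at classes are less specific and hold the only expressed probe sets of WDR19 and IFT22. Without these classes 25 genes kept a value, WDR19 and IFT22 not among them. Of the 25, 1 gene was past 2-fold, and the values of CLUAP1 and MKKS were -0.030 and -0.46. The number at least 2-fold higher lay between 1 and 4. Of the single-gene values 318 moved by no more than 0.24, the spread between probe sets, and 12 by more. No paired analysis was possible because each group is 1 array. Signal over background limits the reading of the 7 genes within background on both.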

Other observations

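Some probe sets of these genes read the floor of the table, 1, on 1 of the arrays. On the control array 3 did: a probe set of BBS9 read 26.4 with miR-34a, one of WDR19 14.7 and one of BBS1 2.85, all within background. In the opposite direction, a probe set of IFT80 read 3.58 with the control and 1 with miR-34a. Signal ratios from such values have no meaning. The pair RABL2A and RABL2B, near-identical genes for RAB-like GTPases that bind the IFT-B particle, was measured only by shared probe sets, which no gene value used. One read 68.4 with the control, within background, and 157 with miR-34a, a log2 ratio of 1.04, and the other 34.3 and 66.9, at 0.72. These probe sets were singled out after their values were seen, and the array does not separate the 2 genes.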
